A study of Homo sapiens with 12 samples.

Results

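Transcript levels of 10 genes of the TGFβ pathway were described in MDA-MB-231-ERβ cells. The 10 were chosen by name as the ligands TGFB1 and TGFB2, the latency protein LTBP1, the receptors TGFBR1, TGFBR2 and TGFBR3, the SMADs SMAD2, SMAD3 and SMAD4, and the target gene TGFBI. All 10 are among the 12451 gene entries used from the count table, and all 10 passed the filter on low values and are among the 11303 entries tested. MDA-MB-231-ERβ cells are a triple negative breast cancer (TNBC) line engineered to express full-length ERβ when doxycycline (dox) is present, so the controls carried the transgene and received dox as well. Cells were grown with dox and either vehicle (ethanol) or 1 nM estradiol (E2) for 5 days, and 20 ng/ml of the inflammatory cytokine TNFα was present or absent for the final 3 h. The 12 libraries thus formed 4 groups of 3, called vehicle, E2, TNFα and E2+ TNFα after what was added. The treatment entry of the E2+ TNFα libraries does not name dox, which is given for them by the treatment protocol shared by all samples. The replicates were dishes of 1 cell line, so p-values measure the spread between dishes only.

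TGFβ ligands are secreted in a latent complex, which LTBP1 tethers to the extracellular matrix. Active ligand binds the type II receptor TGFBR2, which recruits and phosphorylates the type I receptor TGFBR1, while TGFBR3 (betaglycan) is a co-receptor that presents ligand, above all TGFβ2. The activated TGFBR1 phosphorylates SMAD2 and SMAD3, and these join SMAD4 to regulate genes in the nucleus, among them TGFBI, which encodes a secreted matrix protein. In breast cancer the pathway is known for arresting growth of early lesions and for favouring invasion of advanced ones.

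Depth differed between groups, with 35.8 to 39.9 M assigned reads (M, mega) per vehicle library, 7.65 to 15.8 M per E2 library, 19.5 to 30.5 M per TNFα library and 16.8 to 36.7 M per E2+ TNFα library. The fewest reads of any member in a library were 33, for TGFBR1 in an E2 library. The vehicle libraries stood apart from the 9 others in base composition. Weighted by reads, the mean exon GC content was between 50.7 and 51.6% in the vehicle libraries and between 53.4 and 54.6% in the libraries of the other 3 groups. Because no treated library had a GC content like that of vehicle, a batch that held the vehicle libraries and the vehicle condition cannot be told apart. E2+ TNFα was therefore first compared with TNFα and with E2, comparisons that use no vehicle level, and the comparisons with vehicle follow with a second value from which trends with GC content and length had been removed.

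Markers of the cell line were checked in all 4 groups. The mesenchymal and basal markers VIM, CD44, AXL, FOSL1, CAV1 and MSN were each at a mean of at least 169.6 CPM (read counts per mega of normalized library size) in every group, whereas ZEB1, a repressor of epithelial genes, had a mean of 23.3 CPM in vehicle libraries and, in the treated ones, of 1.19 (E2), 2.13 (TNFα) and 2.72 CPM (E2+ TNFα). ZEB1 has an exon GC content of 40.2% and passed the filter on low values only through vehicle libraries. Its lower level in treated libraries is thus a description only. Of the markers that should be low, GATA3 had a mean of 4.69 to 13.01 CPM, ERBB2 of 93.9 to 108 CPM, and the fibroblast gene LUM of at most 0.250 CPM. The epithelial cadherin CDH1 averaged 41.0 CPM with E2 and 40.7 CPM with E2+ TNFα against 3.15 CPM in vehicle and 1.90 CPM with TNFα, so it moved with E2. ESR2, the gene of ERβ, averaged 473 CPM in vehicle, 306 with E2, 255 with TNFα and 448 CPM with E2+ TNFα. The part of CDH1, ZEB1 and ESR2 in the results below was not tested. ESR1, PGR, FOXA1, KRT20, the leukocyte genes PTPRC and CD3E and the fibroblast gene DCN were not analysed here.

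In levels per length (RPKM, the CPM defined above per kilobase of exon), TGFBI was the most abundant member in every group. In vehicle libraries its mean was 52.5 ± 1.87 RPKM (SD, n = 3), followed by TGFB2 at 31.0 ± 3.49, TGFBR2 at 21.9 ± 3.02, SMAD3 at 20.2 ± 1.81, TGFBR1 at 18.4 ± 3.07 and TGFB1 at 16.2 ± 1.44 RPKM. SMAD4 at 4.61 ± 0.471, SMAD2 at 3.99 ± 0.457, TGFBR3 at 0.921 ± 0.269 and LTBP1 at 0.519 ± 0.0784 RPKM followed. Neighbours from TGFBR2 to TGFB1 overlapped between libraries, and so did SMAD4 and SMAD2. In TNFα libraries the order was TGFBI (104 RPKM), TGFBR2 (55.3), SMAD3 (37.2), TGFB1 (34.6) and TGFB2 (11.3), with SMAD2 (2.62), SMAD4 (2.22), TGFBR1 (1.196), LTBP1 (1.09) and TGFBR3 (0.281) far lower. TGFBR1, the kinase on which canonical signalling depends, was thus the fifth most abundant member in vehicle and below 2 RPKM on average in every treated group, at 0.996 RPKM in E2 and 1.82 RPKM in E2+ TNFα libraries. By the RPKM of the filter, which uses library totals without TMM, TGFBR3 had at least 1 RPKM in 3 of 12 libraries, LTBP1 in 8, TGFBR1 in 10, SMAD2 and SMAD4 in 11 and the other 5 members in all 12. TGFBR3, at most 0.349 RPKM in TNFα libraries, passed the filter only through the other groups. LTBP1, at most 0.572 RPKM in vehicle libraries, passed it only through the treated groups. The filter thus favoured low TGFBR3 with TNFα alone and low LTBP1 in vehicle, and these differences are given as descriptions only.

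**Figure D1:**
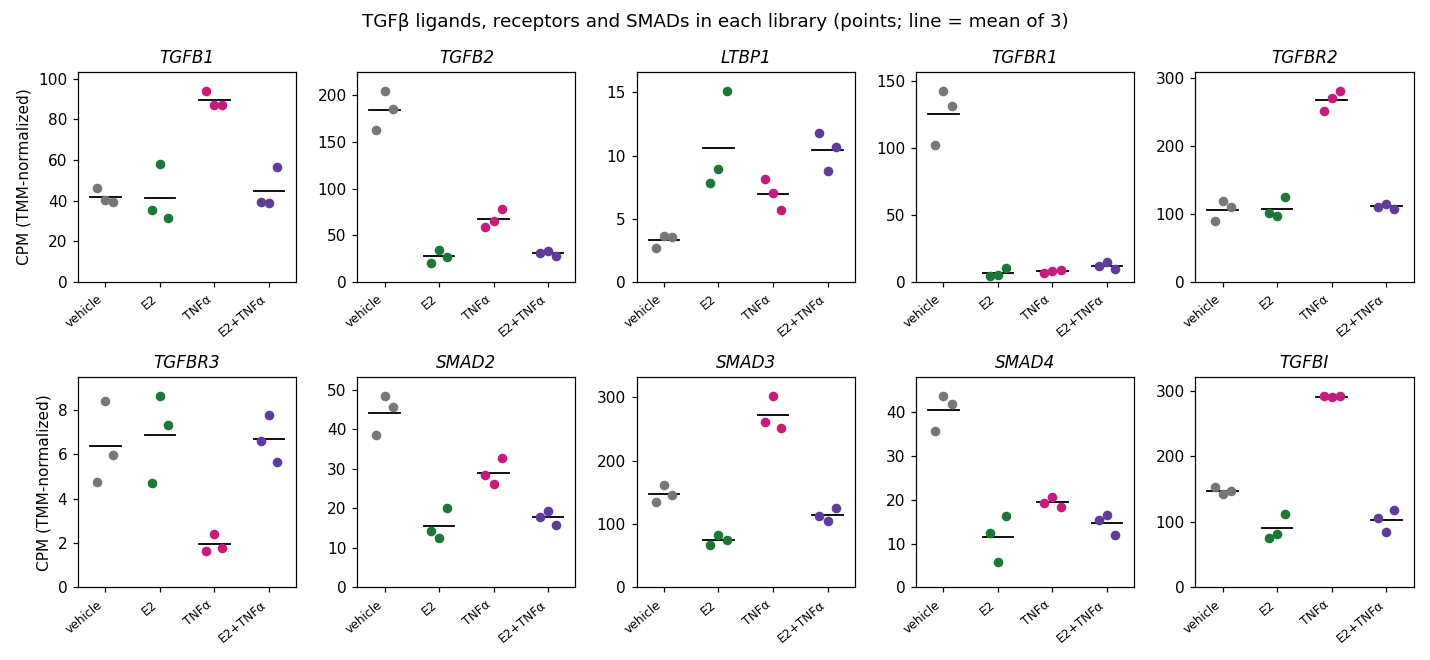
CPM (TMM-normalized, linear axes from 0) of each member in the 3 libraries of each group, with the group mean as a line. TGFB1, TGFBR2, SMAD3 and TGFBI were highest in the TNFα libraries and TGFBR3 lowest, while TGFB2, TGFBR1, SMAD2 and SMAD4 were highest in vehicle.

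To ask how E2 altered transcript levels of the pathway in cells exposed to TNFα, E2+ TNFα was compared with TNFα. TGFB1, TGFB2, TGFBR2, SMAD2, SMAD3 and TGFBI fell, between 1.64-fold (SMAD2) and 2.83-fold (TGFBI), the co-receptor gene TGFBR3 rose 3.42-fold, and TGFBR1 and LTBP1 were higher by a smaller margin. By adjusted p (Benjamini-Hochberg over all genes tested, edgeR) with a threshold of 0.1, 6 members were lower, 3 were higher and 1, SMAD4, did not pass. Of all genes tested, 45.3% passed this threshold, 24.4% as higher and 21% as lower. A change was called significantly regulated when the absolute log2 fold change was also at least 1.5, which held for TGFBR3 and TGFBI, 2 of 10 members against 5.56% of all genes. The members' median log2 fold change was -0.85, and that of all genes was 0.04.

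Of the ligands, TGFB1 was at 93.9, 87.0 and 87.2 CPM in the TNFα libraries and at 39.5, 38.7 and 56.7 CPM in the E2+ TNFα libraries. The groups did not overlap, and the third E2+ TNFα library was the highest of its group. The log2 fold change of TGFB1 was -0.99 ± 0.20 (SE, adjusted p = 0.00114, edgeR). TGFB1 (chromosome 19 of hg38, 41330531 to 41353933, minus strand) has the highest exon GC content of the members, at 64.7%. The E2+ TNFα library with 56.7 CPM and the E2 library with 57.9 CPM, each the highest of its group, were also the 2 libraries with the highest mean GC content, at 54.6% and 54.3%, and the part of base composition in this was not tested.

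TGFB2 (chromosome 1, 218345334 to 218444619, plus strand) was at 58.6, 65.2 and 78.4 CPM in TNFα and 31.5, 33.2 and 28.01 CPM in E2+ TNFα libraries. All 3 E2+ TNFα libraries lay below every TNFα library, and the log2 fold change was -1.12 ± 0.17 (SE, adjusted p = 9.76e-05). Exons of TGFB2 overlap TGFB2-AS1 on the opposite strand over 703 bases (11.8% of the exon length) and TGFB2-OT1 on the same strand over 1371 bases (23.0%), so some of its reads may belong to those transcripts. LTBP1 (chromosome 2, 32947300 to 33399509, plus strand), which holds latent ligand in the matrix, was at 8.17, 7.01 and 5.72 CPM in TNFα and 11.7, 8.82 and 10.7 CPM in E2+ TNFα libraries. These few reads gave groups that lay close together without overlapping, with a log2 fold change of 0.57 ± 0.25 (SE, adjusted p = 0.0853). The adjusted p of LTBP1 stayed at or below 0.1 in 2 of the 6 fits that left out 1 of the 6 libraries and reached 0.249.

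Among the receptors, TGFBR2 (chromosome 3, 30606493 to 30694142, plus strand), the ligand-binding kinase, was at 251, 272 and 281 CPM in TNFα and 111, 115 and 108 CPM in E2+ TNFα libraries. The E2+ TNFα libraries were close together and far below any TNFα library. The log2 fold change was -1.27 ± 0.13 (SE, adjusted p = 1.77e-06). TGFBR3 (chromosome 1, 91680343 to 91906002, minus strand) went the other way, with 1.65, 2.41 and 1.77 CPM in TNFα and 6.61, 7.77 and 5.66 CPM in E2+ TNFα libraries. Both groups were low, with 34 to 74 reads per TNFα library and 107 to 222 per E2+ TNFα library, and they did not overlap. TGFBR3 was significantly regulated, with a log2 fold change of 1.77 ± 0.29 (SE, adjusted p = 0.000200), and remained so in each of the 6 fits without 1 library (1.64 to 1.95). Since TGFBR3 passed the filter only through libraries outside the TNFα group, this rise is a description only. For TGFBR1 (chromosome 9, 99104038 to 99154192, plus strand) the libraries held 7.08, 8.25 and 8.998 CPM with TNFα and 12.3, 15.04 and 9.59 CPM with E2+ TNFα. The third E2+ TNFα library lay just above the highest TNFα library. Its log2 fold change of 0.60 ± 0.26 (SE, adjusted p = 0.0766) passed the adjusted p threshold in 1 of the 6 fits without 1 library, where the adjusted p reached 0.276. Over the 11 other alternatives the value of TGFBR1 ranged from 0.33 to 0.61, and it passed in 8 of them.

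SMAD3 (chromosome 15, 67065627 to 67195195, plus strand), the DNA-binding receptor SMAD, was at 261, 302 and 251 CPM in TNFα and 112, 105 and 126 CPM in E2+ TNFα libraries. No library of one group came near the other, and the log2 fold change was -1.25 ± 0.12 (SE, adjusted p = 1.31e-06). SMAD2 (chromosome 18, 47833095 to 47931193, minus strand), its partner among the receptor SMADs, was at 28.4, 26.1 and 32.7 CPM in TNFα and 17.8, 19.5 and 15.8 CPM in E2+ TNFα libraries. The groups were again separate, by a smaller margin, with a log2 fold change of -0.71 ± 0.17 (SE, adjusted p = 0.00420). SMAD4 (chromosome 18, 51030213 to 51085042, plus strand), the common partner of both, was at 19.3, 20.7 and 18.5 CPM in TNFα and 15.3, 16.6 and 11.98 CPM in E2+ TNFα libraries. Although the SMAD4 groups did not overlap, the log2 fold change of -0.42 ± 0.24 (SE) did not pass, with an adjusted p of 0.181, and an overlap of 814 bases (9.28% of its exons) with an unnamed gene on the same strand applies to all its values. SMAD4 passed by adjusted p in 4 of the 11 other alternatives, among them with the trends with GC content and length removed, at -0.62 (adjusted p = 0.00245). Among the 3 SMADs, SMAD3 thus lay furthest from 0.

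TGFBI (chromosome 5, 136028895 to 136063818, plus strand), the target gene among the members, was at 292, 290 and 291 CPM in TNFα and 105, 85.1 and 118 CPM in E2+ TNFα libraries. The TNFα libraries were nearly equal, and all E2+ TNFα libraries lay far below them. The log2 fold change of TGFBI was -1.502 ± 0.15 (SE, adjusted p = 1.42e-06), just past the size threshold of 1.5. It was short of that threshold without the second E2+ TNFα library (-1.38), with at least 10 counts required in every library (-1.499) and with the trends removed (-1.44), and its direction and adjusted p were on the same side throughout. Counted by overlap, all 10 members had separate libraries in this comparison, beside 46.8% of all genes tested. In these bulk libraries, fewer cells of a type and less RNA per cell cannot be told apart.

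With TMM, TGFB1, TGFBR2, SMAD3 and TGFBI formed a set within the members, since each was highest in the TNFα libraries and lower with E2+ TNFα. For TGFB1 the rise with TNFα relative to vehicle depended on the normalization. It passed by adjusted p in 8 of the 11 other alternatives, with a log2 fold change of 0.90 with library size only. That log2 fold change was 0.03 with the trends removed and -0.05 with a factor from housekeeping genes. The 150 bases before the starts of the 4 genes (the RefSeq start of GRCh38.p14, or the start of the table's entry where that lies further upstream) are shown because these 4 genes moved together with TMM, with the GC box GGGCGG on either strand in capitals. They lie at chr19:41353934-41354083 on the minus strand (TGFB1), chr3:30606206-30606355 (TGFBR2), chr15:67065452-67065601 (SMAD3) and chr5:136028745-136028894 (TGFBI), the last 3 on the plus strand.
TGFB1: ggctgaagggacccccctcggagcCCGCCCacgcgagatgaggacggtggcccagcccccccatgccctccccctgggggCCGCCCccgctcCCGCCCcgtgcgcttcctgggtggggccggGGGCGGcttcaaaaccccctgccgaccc
TGFBR2: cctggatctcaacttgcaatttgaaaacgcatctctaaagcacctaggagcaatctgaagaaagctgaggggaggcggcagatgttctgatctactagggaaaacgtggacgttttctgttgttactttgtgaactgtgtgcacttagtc
SMAD3: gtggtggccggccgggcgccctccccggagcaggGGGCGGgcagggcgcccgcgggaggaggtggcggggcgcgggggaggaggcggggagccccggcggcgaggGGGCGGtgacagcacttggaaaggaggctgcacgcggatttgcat
TGFBI: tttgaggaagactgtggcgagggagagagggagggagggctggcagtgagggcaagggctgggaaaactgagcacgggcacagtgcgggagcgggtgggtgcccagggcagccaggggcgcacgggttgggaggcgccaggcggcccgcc
The GC box stood 4 times in the TGFB1 window, 2 times in that of SMAD3 and in neither of the others, and 36.8% of 35116 RefSeq promoter windows of this length held it. The TGFBR2 window was of 45.3% GC, and those of TGFB1, SMAD3 and TGFBI of 78.7, 79.3 and 71.3%. Searches of both strands for GTCTAGAC and CAGAC (SMAD boxes, the second in 23.6% of windows), TGANTCA (AP-1, 4.17%), GGGNN followed directly by TTTCC (NFκB, 1.11%) and the palindromic estrogen response element (0.0313%) found no match in these 4 windows. No match says only that these letters are not in these windows.

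**Figure D2:**
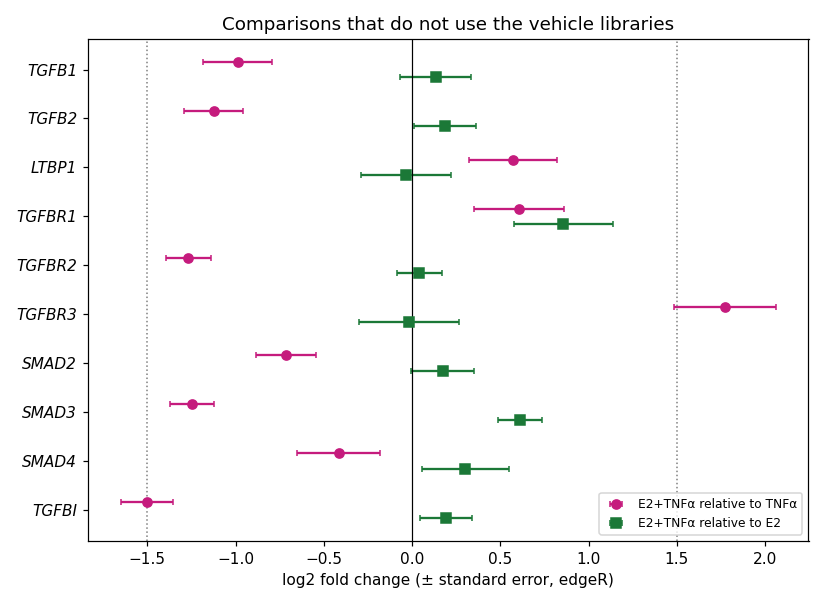
Log2 fold change of each member (points, with the standard error of the edgeR fit as bars) in E2+ TNFα relative to TNFα (circles) and to E2 (squares). Dotted lines mark the size threshold of 1.5, which TGFBR3 (1.77) and TGFBI (-1.502) passed in the first comparison and none passed in the second.

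E2+ TNFα was next compared with E2, which asks what 3 h of TNFα added when E2 had been present. SMAD3 alone rose at the adjusted p threshold of 0.1, and 9 members did not pass, where 6% of all genes tested passed and 2.65% as higher. SMAD3 was at 67.3, 82.6 and 75.1 CPM in E2 and 112, 105 and 126 CPM in E2+ TNFα libraries. These did not overlap, and the log2 fold change was 0.61 ± 0.12 (SE, adjusted p = 0.0217, edgeR). Without the first E2 library the value was 0.54 (adjusted p = 0.102). None of the members was significantly regulated at the size threshold (0 of 10, beside 0.407% of all genes) by edgeR or DESeq2, and 2 had an unadjusted p under 0.05 by either tool.

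TGFBR1, the other of these, was at 4.24, 5.26 and 10.8 CPM in E2 and 12.3, 15.04 and 9.59 CPM in E2+ TNFα libraries. The third library of each group reached into the range of the other, and the log2 fold change of 0.86 ± 0.28 (SE) had an adjusted p of 0.111. In the 6 fits without 1 library the value of TGFBR1 ranged from 0.57 to 1.40. It passed by adjusted p in 2 of these 6 (down to 0.00906, edgeR) and in 2 of the 11 other alternatives, so this call depended on single libraries. TGFB1, TGFBR2 and TGFBI, which were higher in TNFα than in vehicle libraries, had log2 fold changes of 0.13 ± 0.20, 0.04 ± 0.13 and 0.19 ± 0.15 (SE) here, with adjusted p of at least 0.513. TGFB1 passed with a factor from housekeeping genes (0.43, adjusted p = 0.0696, edgeR). TGFBI passed in 1 of the 6 fits without 1 library and in 2 of the 11 other alternatives. For TGFBR2 the 3 E2 libraries were at 102, 96.6 and 126 CPM and the 3 E2+ TNFα libraries at 111, 115 and 108 CPM, inside the range of E2. TGFB2 (0.19), SMAD2 (0.17), SMAD4 (0.30), TGFBR3 (-0.02) and LTBP1 (-0.03) had overlapping libraries too. By overlap, 1 member had separate groups, beside 15.3% of all genes tested.

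Relative to vehicle, the TNFα libraries were separate for all 10 members, beside 86.6% of all genes tested. All 10 had an adjusted p of 0.1 or less, 5 as higher and 5 as lower, where 81.9% of all genes did, 40.3% as higher and 41.6% as lower. The ligand gene TGFB1 was at 46.1, 40.2 and 39.2 CPM in vehicle, below the TNFα levels given above (log2 fold change 1.095 ± 0.20, but -0.05 with a factor from housekeeping genes). TGFBR2 rose from 90.4, 119 and 110 CPM (1.33 ± 0.13), SMAD3 from 135, 161 and 146 CPM (0.88 ± 0.12) and TGFBI from 153, 142 and 147 CPM (0.98 ± 0.15). LTBP1 rose from 2.73, 3.64 and 3.55 CPM (1.08 ± 0.25). All of these errors are SE of the edgeR fit. TGFB2 fell from 163, 205 and 186 CPM (-1.45 ± 0.17), TGFBR1 from 102, 142 and 131 CPM (-3.95 ± 0.27), and TGFBR3 from 4.76, 8.41 and 5.95 CPM (-1.71 ± 0.28). SMAD2 was at 38.6, 48.4 and 45.7 CPM in vehicle (-0.61 ± 0.17) and SMAD4 at 35.8, 43.7 and 42.0 CPM (-1.05 ± 0.23), and both values turned above 0 when trends with base composition were removed. TGFBR1 and TGFBR3 were significantly regulated, 2 of 10 members beside 26.7% of all genes. The filter favoured this fall of TGFBR3, which passed it only through libraries outside the TNFα group. Without the second vehicle library TGFBR3 was at -1.46 and 1 member remained past the size threshold, while TGFB2 passed it without the first vehicle (-1.55) or the third TNFα library (-1.58). TGFB2 also passed it with library size only (-1.65) and with at least 10 counts in every library (-1.51). With the factor from housekeeping genes 5 of the 10 members no longer passed by adjusted p in edgeR, namely TGFB1 (adjusted p = 0.915), TGFBI (0.63, adjusted p = 0.135), LTBP1 (0.996, adjusted p = 0.207), SMAD2 (-0.09, adjusted p = 0.881) and SMAD4 (0.27, adjusted p = 0.642), and TGFBR3 (-1.46) was short of the size threshold. With this factor 4104 of the 11303 genes tested passed by adjusted p, against 9257 without it. TGFB2 (-1.70) and TGFBR2 (1.69) passed the size threshold with it.

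With TMM, the fall of TGFBR1 was the largest change of any member in each comparison with vehicle. This order did not hold with the factor from housekeeping genes, where TGFB2 and TGFBR1 were at -3.08 and -3.04 with E2 and at -2.82 and -2.39 with E2+ TNFα, nor, with E2+ TNFα, with the trends removed (LTBP1 1.73, TGFBR1 -1.46). Its highest level in a treated library was 15.04 CPM, against a lowest vehicle level of 102 CPM. TGFBR1, SMAD2, SMAD4 and TGFB2, the 4 members lower than vehicle in all 3 treated groups with no overlap, are also the 4 of lowest exon GC content (38.7, 39.6, 41.1 and 42.4%). Across all genes tested the log2 fold change relative to vehicle rose with exon GC content, with a Spearman correlation across genes of 0.706 for TNFα, 0.655 for E2 and 0.665 for E2+ TNFα, against -0.21 for E2+ TNFα relative to TNFα and -0.331 relative to E2. Genes are not independent replicates, so these are descriptions.

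With the trends with GC content and length removed from each library, TGFBR1 remained lower than vehicle in TNFα (-1.80), E2 (-1.96) and E2+ TNFα (-1.46) libraries. SMAD2 turned to higher than vehicle in all 3 groups, at 1.68 with TNFα, 0.95 with E2 and 0.68 with E2+ TNFα. SMAD4 was higher with TNFα (0.79) and did not pass with E2 (0.24, adjusted p = 0.175) or E2+ TNFα (0.17, adjusted p = 0.285, edgeR), so no direction relative to vehicle can be given for these SMADs. TGFB2 had values of -0.06 with TNFα, which did not pass, -1.24 with E2 and -1.28 with E2+ TNFα. Of the members that rose with TNFα, TGFBR2 (1.66), LTBP1 (1.15) and SMAD3 (0.76) kept values near or above the first ones, TGFBI was at 0.39, and TGFB1, at 0.03, did not pass. The fall of TGFBR3 with TNFα was at -0.62.

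**Figure D3:**
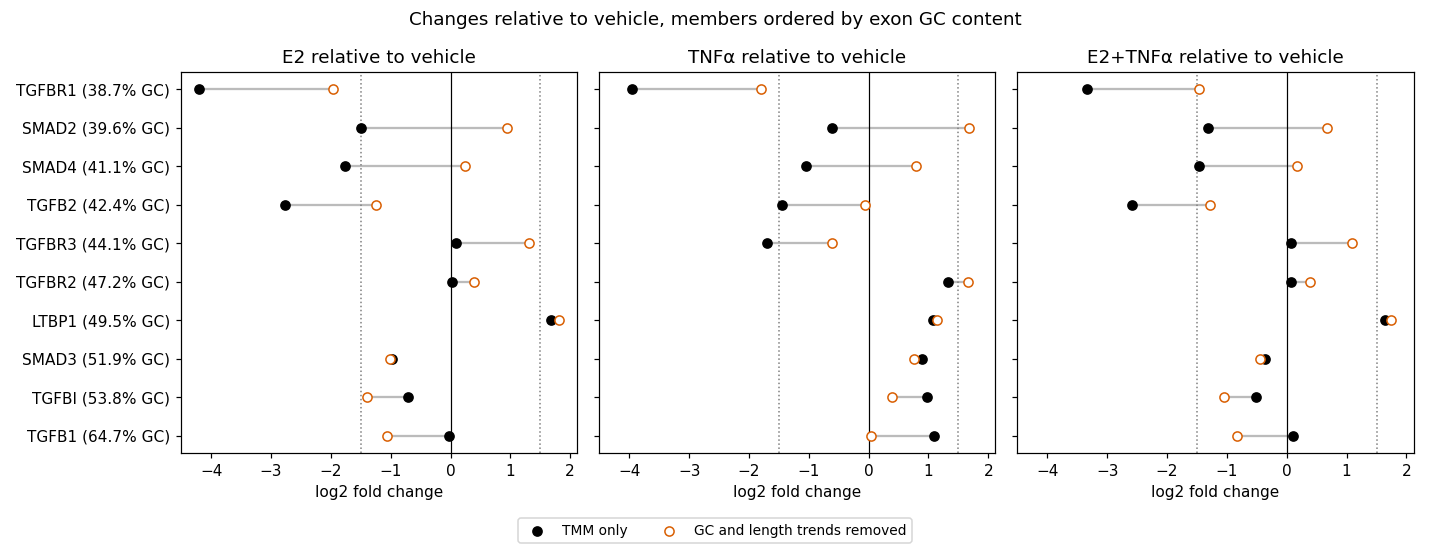
Log2 fold changes relative to vehicle of the 10 members, ordered by exon GC content from 38.7% (TGFBR1) to 64.7% (TGFB1), with TMM normalization only (filled) and with the trends with GC content and length removed from each library (open). Members of low GC content moved to the right and those of high GC content to the left, SMAD2 and SMAD4 changed side in all 3 panels and TGFB1 in that of E2+ TNFα (0.11 to -0.83), and TGFBR1 stayed below 0 in all 3.

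In E2 relative to vehicle, TGFB2 fell to 20.5, 34.6 and 27.4 CPM and the receptor TGFBR1 to 4.24, 5.26 and 10.8 CPM, and LTBP1 rose to 7.80, 8.93 and 15.1 CPM. SMAD4 was at 12.5, 5.90 and 16.3 CPM, below vehicle before and not after the trends were removed. The log2 fold changes of TGFB2, TGFBR1, LTBP1 and SMAD4 were -2.77 ± 0.18, -4.20 ± 0.29, 1.68 ± 0.26 and -1.77 ± 0.25 (SE), and these 4 members were significantly regulated beside 30.5% of all genes. SMAD2 (14.2, 12.6 and 20.0 CPM) was at -1.496 ± 0.18, just short of the size threshold, which it passed with library size only (-1.84), with the replicate block (-1.504), with at least 10 counts in every library (-1.56), in a fit of the 2 groups only (-1.502) and without the first vehicle library (-1.62), the third vehicle library (-1.504) or the third E2 library (-1.76). SMAD4 was short of it without the second E2 library (-1.45). SMAD3 was at -0.97 ± 0.12 and TGFBI (75.5, 82.1 and 112 CPM) at -0.71 ± 0.15. With an adjusted p threshold of 0.1, 1 member was higher, 6 were lower and 3 did not pass, where 81.8% of all genes passed, 40.1% as higher and 41.7% as lower. TGFB1 (35.2, 57.9 and 31.4 CPM), TGFBR2 and TGFBR3 (4.72, 8.61 and 7.32 CPM) were the 3, with -0.03, 0.02 and 0.08, and their libraries overlapped those of vehicle, while the other 7 were separate (80.9% of all genes were). LTBP1 was at 1.82 with the trends removed, but short of the size threshold with library size only (1.34) and without the third E2 library (1.29). SMAD3 (-1.01) and TGFBI (-1.39) were lower with the trends removed as well, and the 3 that had not passed then did, with TGFB1 at -1.06 (adjusted p = 8.90e-08), TGFBR2 at 0.40 (adjusted p = 0.000206) and TGFBR3 at 1.31 (adjusted p = 0.000139, edgeR). With the factor from housekeeping genes TGFB1 passed with E2 (-1.48, adjusted p = 0.00431) and with E2+ TNFα (-1.05, adjusted p = 0.00984), while SMAD2 (-0.86, adjusted p = 0.140) and SMAD4 (-0.18, adjusted p = 0.799) did not pass with E2, nor did they with E2+ TNFα (-0.81, adjusted p = 0.103, and -0.15, adjusted p = 0.808, edgeR). With library size only, TGFB1 (-0.40, adjusted p = 0.0433) and TGFBR2 (-0.33, adjusted p = 0.0497, edgeR) passed with E2, TGFBR2 with the opposite sign to that with the trends removed, and TGFB1 passed without the second E2 library too (-0.28, adjusted p = 0.0919).

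In E2+ TNFα relative to vehicle, 7 members passed the adjusted p threshold, 1 as higher and 6 as lower, where 80.6% of all genes passed, 39.1% as higher and 41.5% as lower. The 3 that did not, TGFB1 (0.11), TGFBR2 (0.06) and TGFBR3 (0.07), had overlapping libraries, and the groups were separate for the other 7 and for 81.6% of all genes. With the trends removed these 3 passed as well, at -0.83, 0.39 and 1.08, so their calls relative to vehicle depended on the normalization. TGFB2 (-2.58 ± 0.18), TGFBR1 (-3.35 ± 0.26) and LTBP1 (1.65 ± 0.26, SE) were significantly regulated beside 25.1% of all genes. SMAD2 was at -1.32 and SMAD4 at -1.47, and with library size only they passed the size threshold (-1.55 and -1.69), as SMAD4 did without the first vehicle library (-1.58), the first (-1.504) or the second E2+ TNFα library (-1.57) and with at least 10 counts in every library (-1.52). TGFBI was at -0.52 and SMAD3 at -0.36. SMAD3 thus was 1.85-fold higher than vehicle with TNFα and 1.29-fold lower with E2+ TNFα, and TGFBI 1.97-fold higher and 1.43-fold lower. Both comparisons share the vehicle libraries, and the direct test is the comparison of E2+ TNFα with TNFα above. LTBP1 was higher than vehicle in all 3 treated groups with no overlap, and under each alternative with a value above 0, at means of 10.6 CPM with E2, 6.97 CPM with TNFα and 10.4 CPM with E2+ TNFα against 3.31 CPM in vehicle. LTBP1 passed the filter only through treated libraries, which favoured this rise, so the rise is a description only. Without the first vehicle library LTBP1 was at 1.4996 with E2+ TNFα, and with library size only at 1.41, and so not past the size threshold.

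The interaction of E2 and TNFα (the TNFα response with E2 minus that without) was above 0 for TGFB2 (1.64 ± 0.24), TGFBR1 (4.81 ± 0.38) and TGFBR3 (1.69 ± 0.40, SE), each past the size threshold, 3 of 10 members beside 31.8% of all genes. SMAD2 (0.78) and SMAD4 (1.35) were above 0 and TGFB1 (-0.96), TGFBR2 (-1.29), TGFBI (-0.79) and LTBP1 (-1.11) below 0 with an adjusted p of 0.1 or less. SMAD3 (-0.27, adjusted p = 0.166) did not pass, though it did in 2 of the 12 fits without 1 library (adjusted p down to 0.0766, edgeR). Without the first E2 library TGFB2 (1.48) and TGFBR3 (1.49) were short of the size threshold, as TGFBR3 was without the second vehicle library (1.45), and without the third E2 library SMAD4 passed it (1.67). Of all genes tested, 76.6% passed, 39% as above and 37.6% as below 0. This fit uses the vehicle libraries, and its Spearman correlation with exon GC content across genes was -0.689. With the trends removed, TGFBR1 (2.30), TGFBR2 (-1.67) and LTBP1 (-1.23) kept their direction, TGFBR3 (0.39, adjusted p = 0.329) did not pass, TGFB2 (0.02) and TGFBI (-0.05) were near 0, and SMAD2 (-1.95), SMAD4 (-0.86) and TGFB1 (0.19) changed side. With the factor from housekeeping genes TGFBR1 (3.63), TGFBR2 (-1.73) and TGFB2 (1.96) passed by adjusted p in edgeR, whereas LTBP1 (-1.02, adjusted p = 0.317), TGFBI (-0.37, adjusted p = 0.512), SMAD2 (0.14, adjusted p = 0.849), SMAD4 (-0.24, adjusted p = 0.751), TGFB1 (0.48, adjusted p = 0.342) and TGFBR3 (1.39, adjusted p = 0.213) did not. For TGFBR2 the rise with TNFα was thus smaller when E2 was present in these 3 fits, and its E2+ TNFα libraries lay inside the ranges of E2 and of vehicle.

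Other genes of the pathway were taken from 4 lists, of other ligands with latency and activation proteins, other receptors, SMAD inhibitors and regulators, and target genes. Of the 56 genes listed, 46 were tested, and in E2+ TNFα relative to TNFα 17 rose, 12 fell and 17 did not pass by adjusted p, where 24.4% of all genes rose and 21% fell. Their median log2 fold change was 0.16, against 0.04 for all genes. Significantly regulated were 5 (10.9%, beside 5.56% of all genes). TGFB3, LRRC32, ITGB6, ACVR1C, ACVRL1, CD109, LDLRAD4 and CDKN2B were not analysed here, and ITGB8 and ACVR2A were below the filter. Genes of the lists other than SMAD7, SKIL, PMEPA1 and those past the size threshold were chosen for naming after their values had been seen.

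Among other ligands and latency genes, 4 rose, 4 fell and 4 did not pass (12 tested of 16), beside the same 24.4% and 21% of all genes. INHBB, which encodes the βB subunit of activin and inhibin, rose from a mean of 0.732 to 45.0 CPM (log2 fold change 5.97), and FST, the activin antagonist follistatin, fell from 68.4 to 19.1 CPM (-1.84). INHBA, the βA subunit, rose from 452 to 696 CPM (0.62), and LTBP2, LTBP3 and LTBP4, relatives of LTBP1, fell (-0.70, -0.88 and -0.51). Of 3 receptors tested of 7, ACVR1B (-0.43) and ACVR2B (-0.92), kinases for activin, fell, and the endothelial co-receptor ENG (-0.24) did not pass.

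Of the SMAD inhibitors and regulators (15 tested of 16), 3 rose, 4 fell and 8 did not pass (24.4% and 21% of all genes rose and fell). SMAD7, the inhibitory SMAD that blocks TGFBR1, was at 13.3, 13.1 and 14.8 CPM in TNFα and 37.6, 36.7 and 48.5 CPM in E2+ TNFα libraries. All E2+ TNFα libraries exceeded every TNFα library of SMAD7, with a log2 fold change of 1.58 ± 0.15 (SE, adjusted p = 1.10e-06, edgeR), and without the third E2+ TNFα library it was at 1.44, short of the size threshold. BAMBI, a decoy receptor, and FKBP1A, which binds TGFBR1, rose (1.13 and 1.23), while the corepressors SKI (-0.54), TGIF1 (-0.77) and TGIF2 (-0.85) and the ubiquitin ligase SMURF1 (-0.43) fell. SKIL (0.16) and PMEPA1 (-0.10), feedback genes of the pathway, did not pass, with means of 5.33 and 393 CPM in TNFα and 5.95 and 366 CPM in E2+ TNFα libraries. SKIL passed as lower when the trends with GC content and length were removed (-0.36, adjusted p = 0.0418, edgeR).

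The target list did not move in one direction. Of 16 tested of 17, 10 rose, 2 fell and 4 did not pass, where 24.4% of all genes rose and 21% fell. FN1 (fibronectin) rose from a mean of 901 to 5191 CPM (2.53) and the metalloprotease gene ADAM19 from 133 to 505 CPM (1.93), and these 2 were significantly regulated. CDKN1A, the cell cycle inhibitor p21, rose from 678 to 1579 CPM (1.22), and TAGLN (1.30), TPM1 (0.60), SNAI1 (0.81), SNAI2 (0.43), KLF10 (0.49), PTHLH (1.43) and SPHK1 (0.68) rose as well. CCN2, which encodes a matricellular growth factor, was among those that fell (-0.39). The fall of TGFBI thus had the direction of CCN2 and not that of the 10 target genes that rose.

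**Figure D4:**
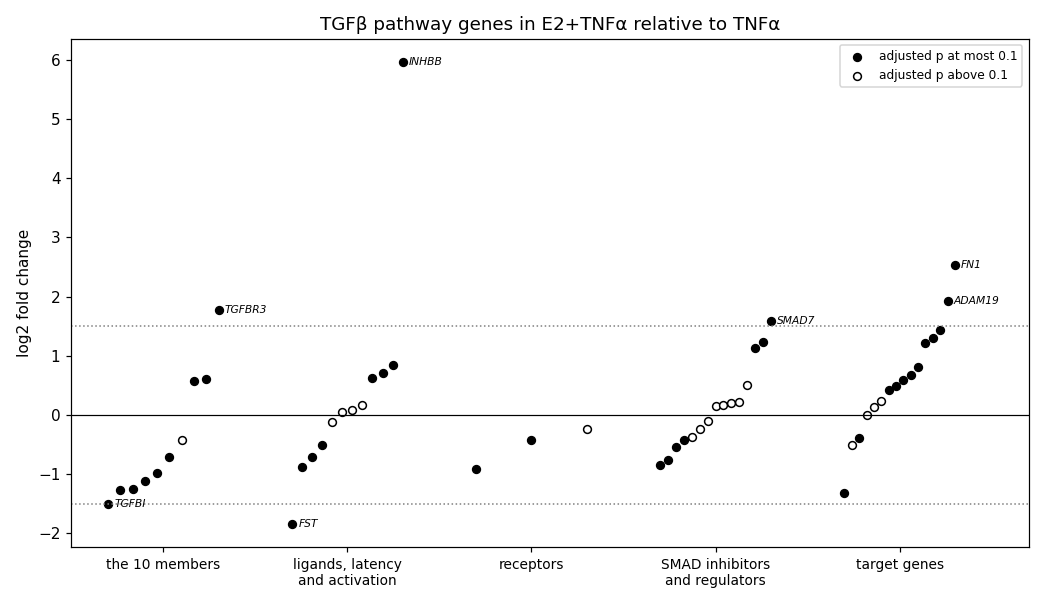
Log2 fold change in E2+ TNFα relative to TNFα of the 10 members and of the tested genes of the 4 lists, 1 point per gene in order of value within each list. Filled points had an adjusted p of at most 0.1, dotted lines mark the size threshold of 1.5, and the 7 genes past it are named, from FST (-1.84) to INHBB (5.97).

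In E2+ TNFα relative to E2, of the 46 genes 2 rose (INHBA, 0.57, and JUNB, 0.93), 1 fell (FKBP1A, -0.47) and 43 did not pass, where 6% of all genes passed and 2.65% as higher. By edgeR or DESeq2, 0 were significantly regulated (0.407% of all genes were by edgeR) and 10 had an unadjusted p under 0.05 by either. Relative to vehicle, 15 of the 46 (32.6%) were significantly regulated with E2, 9 (19.6%) with TNFα and 14 (30.4%) with E2+ TNFα, near the shares of all genes given above. Past the thresholds with E2 were, among others, INHBB (4.39), FSTL3 (1.57), SMAD7 (1.86), PMEPA1 (1.78), CDKN1A (2.20) and PTHLH (2.06) as higher and SMURF2 (-3.22), USP15 (-3.02), SKIL (-2.27), ITGAV (-2.21) and ACVR2B (-2.02) as lower, of which SKIL (0.56) and ITGAV (0.12) turned above 0 with the trends removed. INHBB, PTHLH and SMURF2 were past the thresholds with the trends removed too, whereas SMAD7 (1.18), PMEPA1 (1.42), CDKN1A (1.35), FSTL3 (0.56), ACVR2B (-0.69) and USP15 (-0.03) were short of them. PMEPA1 was also short with library size only (1.42) and with the factor from housekeeping genes (1.14). USP15 and ACVR2B reached 1 RPKM in 3 libraries only, those of vehicle, and so passed the filter through the group where they were highest. SKIL (4 libraries) also needed those of vehicle to pass, and INHBB (6) and PTHLH (4) passed only through libraries with E2. The filter thus favoured these falls from vehicle and rises with E2, which are given as descriptions only. With TNFα, PMEPA1 (2.14), JUNB (1.72) and ENG (1.53) were higher and USP15 (-2.99), ITGAV (-2.58), SMURF2 (-2.41), SKIL (-1.70) and INHBB (-1.54) lower, whereas SMAD7 (0.59) did not reach the size threshold, and SKIL (1.08) and SMAD7 (-0.01) changed side with the trends removed. PMEPA1 and INHBB then were past the thresholds, and JUNB (0.65), ENG (0.69), USP15 (-0.08), ITGAV (-0.37) and SMURF2 (-0.84) were not. Among those with E2+ TNFα, INHBB (4.43), CDKN1A (2.23), SMAD7 (2.17), PMEPA1 (2.03), PTHLH (1.85) and JUNB (1.72) were higher, and SMURF2 (-2.66), USP15 (-2.48), ACVR2B (-2.08), ITGAV (-1.73) and SKIL (-1.54) lower, of which SKIL (0.73) and ITGAV (0.17) again changed side with the trends removed. JUNB (0.76), SMURF2 (-1.21), USP15 (-0.12) and ACVR2B were then short of the thresholds, and the other 5 named were past them.

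Across the 12 libraries, which share groups, depth and base composition, the members fell into patterns of likeness (Pearson r of log2 CPM, as a description). SMAD3 and TGFBI (0.948) and TGFBR2 and TGFBI (0.874) were the most alike of the members highest with TNFα, and TGFB2 and SMAD2 (0.947) and SMAD2 and SMAD4 (0.941) of those highest in vehicle. TGFB2 and LTBP1 (-0.902) and TGFBR2 and TGFBR3 (-0.862) were the most opposed. The tested gene most like each member was CLU for TGFB1 (0.989), INSYN2B for TGFB2 (0.990), DDX24 for LTBP1 (0.976), NIN for TGFBR1 (0.998), POGK for TGFBR2 (0.983), ARHGEF26 for TGFBR3 (0.974), TFPI2 for SMAD2 (0.984), ETS2 for SMAD3 (0.986), GRK3 for SMAD4 (0.992) and NAT10 for TGFBI (0.985).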

How the data were processed

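RNA-seq of 12 MDA-MB-231-ERβ libraries (4 groups of 3) was analysed from 1 table of read counts. Per the labels and the methods of the study, the authors prepared stranded mRNA libraries from total RNA, aligned reads with TopHat2 2.1.0 to hg38 and assigned them to genes with featureCounts. The strand setting of the counting is not given in the sources used here. The deposited counts are whole numbers with no normalization, and the RUVseq batch correction of the study is not in them. Of 12567 rows, 46 exact repeats and 70 rows that gave an already listed locus and its counts a second symbol were left out. A minimum of 1 RPKM (from library totals) in 3 or more libraries left 11303 entries to test, and the CPM and RPKM printed use TMM-normalized library sizes. TMM factors and the quasi-likelihood test of edgeR (version 4.0.16, R 4.3.3) were used in a single fit of all 4 groups, with Benjamini-Hochberg adjustment over all entries tested. The study's thresholds were used (absolute log2 fold change of at least 1.5, p under 0.05, adjusted p at most 0.1). Totals of 7.65 to 39.9 M reads made counting error small for all but members with few reads, and the chi-square per degree of freedom between replicates was 10.2 to 71.3, so no library was a repeat of another.

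The alternatives were size factors of DESeq2, library size only, no filter, a minimum of 10 counts in all libraries, a replicate block, an RUVg-like factor from 20 housekeeping genes, DESeq2 (version 1.42.0), edgeR's likelihood ratio test, a fit restricted to both compared groups, removal of loess trends (span 0.3) with exon GC content and length within each library, the same with the replicate block, and each library left out in turn. The edgeR and DESeq2 tests, the size factors, the fit of both compared groups, the replicate block and the trend removal were tested on simulated data. The factor from housekeeping genes, library size only, the changed filters and the fits without 1 library were not. The members, the lists and the tests were chosen with earlier results of these data known. All members were named in every comparison. Other pathway genes were named where past the thresholds, without overlap between groups and with a mean of at least 1 CPM (at most 4 per list), beside SMAD7, SKIL and PMEPA1, and those named after their values were seen are said to be so. An item counted among the listed genes is not reported here by name. Promoter sequences are from RefSeq (GRCh38.p14), and all 10 members matched by symbol. Overlaps of exons are from GENCODE v44.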

Additional observations from a re-analysis of the deposited data

Results flagged for a closer look

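The effect of TNFα differed with and without E2, by the interaction term of the edgeR fit, for TGFB2 (1.64, adjusted p = 3.00e-05), TGFBR1 (4.81, adjusted p = 2.04e-07), TGFBR3 (1.69, adjusted p = 0.00154), SKIL (2.43, adjusted p = 0.000105) and PMEPA1 (-1.89, adjusted p = 9.60e-07), on the log2 scale, beside 31.8% of all genes past the same thresholds. TGFBR1 had a mean of 6.76 CPM with E2 and 12.3 CPM with E2+ TNFα, while without E2 it fell from 125 to 8.11 CPM. The difference between E2 and E2+ TNFα did not pass with all libraries (adjusted p = 0.111, edgeR) but did in 2 of the 6 fits without 1 library. TGFBR3 fell with TNFα in all 3 libraries when E2 was absent and had overlapping libraries when it was present. PMEPA1 was at 96.0, 86.5 and 86.0 CPM in vehicle and at least 276.6 CPM in every other library. SKIL was at 13.7, 20.5 and 17.5 CPM in vehicle and at most 8.33 CPM in every other library. With the trends with GC content and length removed, the interaction was 0.02 for TGFB2, 2.30 for TGFBR1, 0.39 for TGFBR3, -0.92 for SKIL and -1.46 for PMEPA1. With the factor from housekeeping genes TGFB2 (1.96) and TGFBR1 (3.63) were past the thresholds, PMEPA1 (-1.25) was short of the size threshold, and SKIL (0.43, adjusted p = 0.681) and TGFBR3 (1.39, adjusted p = 0.213) did not pass in edgeR. The cause of these differences was not tested.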

How the results depend on the processing

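In E2+ TNFα relative to TNFα, no member changed direction under any alternative. Of all genes, 3447 were significantly regulated with E2, 3016 with TNFα and 2837 with E2+ TNFα relative to vehicle, and 3593 by the interaction. With the factor from housekeeping genes these counts were 1827, 1380, 1483 and 1644, with the trends removed 1570, 1179, 1227 and 1556, and with the trends removed and the replicate block 1564, 1188, 1239 and 1543. In E2+ TNFα relative to E2 the 46 genes became 24 with at least 10 counts in every library, 30 with a fit of the 2 groups only and 32 to 84 when libraries were left out in turn, the highest without the third E2 library. With the trends removed, with or without the block, the members significantly regulated were 2 in place of 4 with E2 and 1 in place of 3 with E2+ TNFα relative to vehicle, and 1 in place of 2 in E2+ TNFα relative to TNFα, where 1 was also left with at least 10 counts in every library. Leaving out libraries gave 1 to 3 members with TNFα relative to vehicle (1 without the second vehicle library), 1 to 2 in E2+ TNFα relative to TNFα (1 without the second E2+ TNFα library) and 1 to 4 for the interaction (1 without the first E2 library).

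Values that changed sign are given as log2 fold changes. With the trends removed, and then with the block as well, these were, for E2 relative to vehicle, ITGAV (0.12, 0.13), SKIL (0.56, 0.56), SMAD2 (0.95, 0.93) and SMAD4 (0.24, 0.22). For TNFα relative to vehicle they were SKIL (1.08, 1.08), SMAD2 (1.68, 1.68), SMAD4 (0.79, 0.79) and SMAD7 (-0.010, -0.0091). For E2+ TNFα relative to vehicle they were ITGAV (0.17, 0.18), SKIL (0.73, 0.73), SMAD2 (0.68, 0.67), SMAD4 (0.17, 0.18) and TGFB1 (-0.83, -0.83), and for E2+ TNFα relative to TNFα SKIL (-0.36, -0.36). For E2+ TNFα relative to E2 they were SMAD2 (-0.27, -0.25), SMAD4 (-0.069, -0.038), TGFB2 (-0.041, -0.046) and TGFBR2 (-0.012, -0.013). For the interaction they were SKIL (-0.92, -0.92), SMAD2 (-1.95, -1.93), SMAD4 (-0.86, -0.83), SMAD7 (0.45, 0.45) and TGFB1 (0.19, 0.19). With the factor from housekeeping genes they were SMAD4 (0.27) and TGFB1 (-0.048) for TNFα, SKIL (0.0084) and TGFB1 (-1.05) for E2+ TNFα relative to vehicle, TGFBR2 (-0.042) for E2+ TNFα relative to E2, and SMAD3 (0.062), SMAD4 (-0.24), SMAD7 (0.049) and TGFB1 (0.48) for the interaction. With library size only, which moved the median of all genes to -0.38 with E2, -0.19 with TNFα and -0.26 with E2+ TNFα relative to vehicle, they were TGFBR2 (-0.33) and TGFBR3 (-0.28) for E2, TGFB1 (-0.14), TGFBR2 (-0.16) and TGFBR3 (-0.15) for E2+ TNFα relative to vehicle, LTBP1 (0.075) and TGFBR3 (0.12) for E2+ TNFα relative to E2, and SMAD3 (0.048) and SMAD7 (0.030) for the interaction. With at least 10 counts in every library they were TGFBR2 for E2 (-0.040) and TGFBR3 for E2+ TNFα relative to E2 (0.0025), and with a fit of the 2 groups only TGFBR3 for E2+ TNFα relative to E2 (0.0087). When libraries were left out, sign changes were limited to values near 0, namely TGFB1 (-0.28 to 0.10), TGFBR2 (-0.14 to 0.14) and TGFBR3 (-0.12 to 0.31) for E2, TGFB1 (-0.10 to 0.20), TGFBR2 (-0.070 to 0.13) and TGFBR3 (-0.13 to 0.29) for E2+ TNFα relative to vehicle, SKIL (-0.18 to 0.46) for E2+ TNFα relative to TNFα, and LTBP1 (-0.22 to 0.32), TGFB1 (-0.067 to 0.41), TGFBR2 (-0.046 to 0.16) and TGFBR3 (-0.24 to 0.15) for E2+ TNFα relative to E2. The cause of these changes was not tested.

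The replicate number as a block gave 3453, 3018 and 2870 genes relative to vehicle with E2, TNFα and E2+ TNFα, 623 (against TNFα) and 36 (against E2) for E2+ TNFα, and 3585 for the interaction. Deviations of same-numbered libraries from their group means had correlations of both signs (-0.539 to 0.516), so no pairing by number was seen throughout. Deviations from means of 3 libraries cannot exclude a pairing. Depth limits TGFBR3, LTBP1, TGFBR1 and SMAD4, which had as few as 34, 56, 33 and 37 reads in a library.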
